A study of Mus musculus with 6 samples.

Results

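The peak list described here came from the control arm of a ChIRP-seq experiment on the long noncoding RNA *LncRNA-HIT*, named Hotchon in the sample labels. All 2919 peaks of the glial list were taken, out of 5799 peaks in both lists of the series, the other 2880 being those of the embryonic limb. The study made 6 libraries, with an odd probe set, an even probe set and 1 input for each tissue, from Swiss Webster mice. The glial chromatin came from a murine glial cell line, labelled embryonic whole brain, that the labels describe as not expressing the RNA. The sample characteristics give its stage as E 11.0 and the protocol text as E15.5, and neither was used. The limb chromatin came from the distal limb bud at E 11.0. No expression values were analysed here, so neither the glial identity of the cells nor the absence of the RNA could be checked.

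In ChIRP, biotin-labelled DNA oligonucleotides complementary to one RNA are hybridized to fixed, sheared chromatin, and the DNA held with them on streptavidin beads is sequenced. A cell type without the RNA is hybridized with the same oligonucleotides, since DNA can also be held by direct pairing with an oligonucleotide, by the beads, or through sequences that are over- or under-represented in the input. The genome holds several kinds of sequence for which read counts are hard to place, among them the satellite arrays beside the centromeres, the ribosomal RNA genes, the Y chromosome with its many copies of a few genes, and nuclear copies of mitochondrial DNA.

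The satellite, simple-repeat and low-repeat sequences below stood under strong glial peaks and are shown as examples of the different kinds of place where such peaks lay. All positions are of the mouse build mm9. The first pair are adjacent units of the array at the start of chromosome 9, chr9:3001976-3002209 and chr9:3002210-3002443, read on the minus strand. Capitals mark the 8-base word that was most over-represented in the list. The next pair are 100-base stretches of the plus strand at the centres of the peaks in *Tcte2*, chr17:13745350-13745449, and *Smo*, chr6:29698388-29698487, with the unit CTGTG in capitals. The fifth is the centre of the peak in *Myo16*, chr8:10599513-10599612, with a 22-base unit in capitals. The sixth, chr17:39981712-39981811, lies in the GC-rich peak beside *AY036118*, and the last, chr14:62832288-62832387, in a peak without any repeated word.
chromosome 9 unit, first: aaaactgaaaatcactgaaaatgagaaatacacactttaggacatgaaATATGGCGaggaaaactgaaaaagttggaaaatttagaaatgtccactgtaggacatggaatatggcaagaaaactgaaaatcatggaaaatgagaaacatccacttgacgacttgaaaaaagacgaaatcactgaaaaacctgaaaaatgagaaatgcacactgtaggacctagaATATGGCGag
chromosome 9 unit, next: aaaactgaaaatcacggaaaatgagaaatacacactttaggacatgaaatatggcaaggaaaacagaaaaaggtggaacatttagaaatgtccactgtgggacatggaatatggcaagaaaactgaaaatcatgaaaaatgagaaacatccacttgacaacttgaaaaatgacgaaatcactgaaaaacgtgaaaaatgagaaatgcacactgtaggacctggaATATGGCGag
Tcte2: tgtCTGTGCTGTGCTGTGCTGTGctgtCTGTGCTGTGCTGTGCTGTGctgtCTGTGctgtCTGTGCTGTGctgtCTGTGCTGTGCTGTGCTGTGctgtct
Smo: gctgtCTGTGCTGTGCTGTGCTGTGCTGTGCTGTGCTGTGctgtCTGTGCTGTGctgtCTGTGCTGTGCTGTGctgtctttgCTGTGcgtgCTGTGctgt
Myo16: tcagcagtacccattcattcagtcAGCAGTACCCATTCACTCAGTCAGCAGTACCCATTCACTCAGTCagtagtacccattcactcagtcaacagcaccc
beside AY036118: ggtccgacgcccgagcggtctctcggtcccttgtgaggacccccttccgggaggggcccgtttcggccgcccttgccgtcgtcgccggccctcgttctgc
chromosome 14: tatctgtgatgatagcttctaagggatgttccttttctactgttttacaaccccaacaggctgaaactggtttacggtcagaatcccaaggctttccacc

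The glial peaks were narrow and uniform, with a minority of wide and strong ones. The width ran from 202 to 5351 bp, with a median of 407 bp and quartiles of 401 and 431 bp. The most common width was 408 bp, held by 475 peaks, and 85.8% of the peaks were between 350 and 450 bp wide. A separate group of 98 peaks was under 300 bp wide and had strengths from 9.21 to 26.2, with a median of 14.8. Strength is given as −log10(p), the negative log10 of the p-value that the peak caller assigned against the glial input. At the other end, 51 peaks were wider than 1000 bp, with a median strength of 130, and 29 of them overlapped a limb peak. Across the list, width and strength rose together, with a Spearman coefficient of 0.76 over the 2919 peaks, which is a description because both come from the same reads. In the limb list the same coefficient was 0.77, and the most common width was again 408 bp, so the form of the glial peaks was not particular to the control.

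The strength ran from 5.82 to 317 with a median of 32.5 and quartiles of 15.7 and 55.2. The 20th peak had a strength of 231, the 50th 124, the 100th 94.4 and the 500th 62.2. A stricter threshold, a strength of at least 56.23, was passed by 700 glial peaks, 24% of the list, against 774 limb peaks, 26.9% of theirs. A strength of at least 100 was reached by 90 glial and 93 limb peaks. The control arm held peaks about as numerous as those of the limb, and their strengths covered about the same range. Each list is 1 call on merged probe sets and the read counts behind the peaks are unknown, so no difference between the lists was tested, and the 95% Wilson intervals given for shares cover counting error only.

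**Figure D1:**
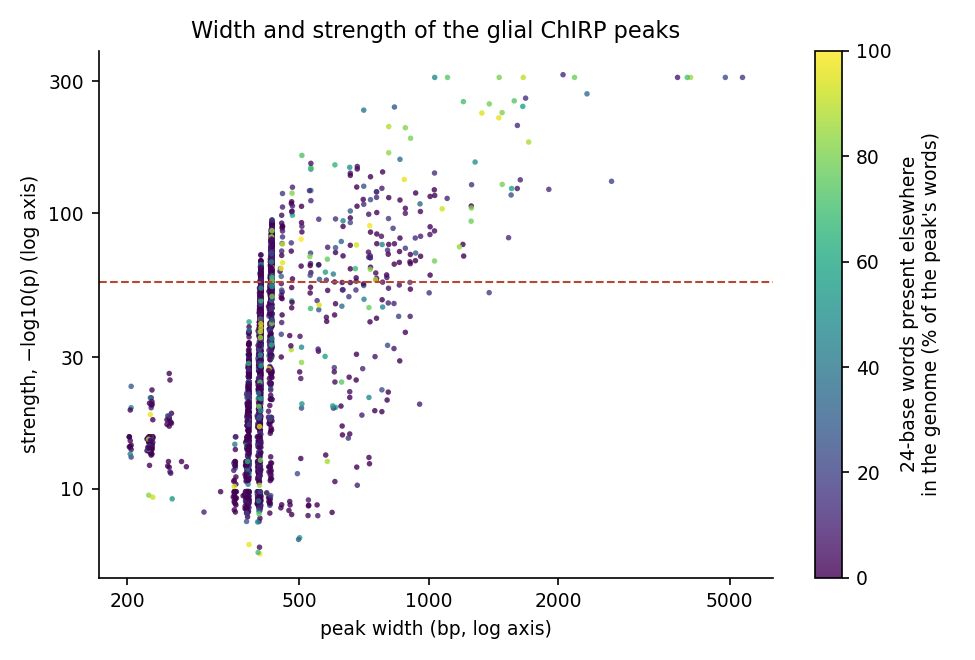
Each point is 1 of the 2919 glial peaks, with its width in bp and its strength as −log10(p), both on log axes. Colour gives the percentage of the 24-base words of the peak that occur elsewhere in the genome, and the dashed line is the threshold of 56.23. Most points form a narrow column near 407 bp, and width and strength tend to rise together.

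The share of repeated sequence in a peak is given as the percentage of its 24-base words for which mm9 holds a second copy on either strand. The list as a whole was poor in repeats. The median was 1.75% for the glial peaks, 0.99% for the limb peaks and 3.98% for 25577 windows of 400 bp placed every 100 kb along the genome. Of the glial peaks, 2033 (69.6%) held less than 10% repeated words, against 60.2% of the windows. Peaks with at least 50% repeated words numbered 177, which was 6.06% of the list and 17.3% of the windows. Reads were mapped uniquely, a step that removes reads from exact repeats.

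The strong end of the list looked different. Of the 90 peaks with a strength of at least 100, 30 (33.3%) were at least 50% repeated and 32 (35.6%) were below 10%. The median repeated share was 16.7% in this class, and between 0.82% and 2.22% in each of the 5 weaker classes of strength. The same 90 peaks had a median width of 880.5 bp. They also made up much of what the lists had in common. Of these 90 peaks, 40 overlapped a limb peak (44.4%), compared with 4.43% of the peaks with a strength of 60 to 100 and with 1.69% of those of 10 to 20.

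The 20 strongest peaks fell mostly in sequence with copies elsewhere, 11 of them being at least 50% repeated and 1 below 10%. Of these, 6 lay on chromosome Y, 3 in *Sfi1* on chromosome 11, 2 each on chromosome 2, chromosome 17 and the mitochondrial genome, and 1 each on chromosomes 6, 8, 9, 10 and 15. They were 707 to 5351 bp wide, and 19 of the 20 overlapped a limb peak. Their order is only partly known. The value of 310 was shared by 10 glial peaks, and by 9 limb peaks as the highest of that list. A value shared in this way can be a limit of the score, so peaks at 310 may be stronger than it shows. A single glial peak, chr11:3077953-3080003, was above it at 317, and whether that peak outranks the 10 is not known. In the limb list the peak at this last place had a strength of 123.

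The largest array of glial peaks was at the start of chromosome 11. The longest run of peaks with gaps of at most 25 kb, 30 of them, lay in chr11:3032496-3099528, a span of 67.0 kb, and 26 peaks had their midpoint in *Sfi1*, which encodes a centrin-binding protein of the centrosome and spindle. These 26 peaks corresponded to 422 per Mb of the gene. *Drg1*, which encodes a GTP-binding protein and overlaps the same end of the region, held 7. The limb list had 26 peaks in *Sfi1* and 7 in *Drg1*, and 16 of the 30 glial peaks overlapped a limb peak. Of the 3 *Sfi1* peaks among the strongest 20, the one at chr11:3035921-3038251, with a strength of 270, overlapped no limb peak. The repeated share of the array was moderate, with a median of 14.6% and 9 peaks below 10%.

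The array on chromosome 9 was of satellite DNA. It held 23 peaks in chr9:2999821-3038403, with a median repeated share of 93.4% and a median GC content of 35.1%, and 20 of them overlapped a limb peak. The strongest, chr9:3001897-3003225, had a strength of 230. Compared with itself at a shift of 234 bp, this peak matched at 71.9% of its bases, and the adjacent units printed above were 95.3% identical. Mouse major satellite DNA, the main repeat of the blocks beside the centromeres, has units of this length. The 8-base word ATATGGCG, in capitals in those units, was found on either strand in the central 400 bp of 37 glial peaks (1.27%), 29 limb peaks (1.01%) and 27 windows (0.106%). Among glial peaks with the word, 24 lay in the densest 1 Mb windows of chromosomes 9, 11 and Y.

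Related sequence lay outside that array. The peaks chr2:98502197-98503302 in *Gm10801* and chr2:98506196-98507653 in *Gm10800* both reached 310 in each tissue. They shared at least 10% of their 24-base words with 27 and 29 other glial peaks, of which 21 and 23 were on chromosome 9. The peak chr9:35112597-35113303, 23.2 kb from *Gm5614*, had a strength of 236 in glial cells and 223 in limb, and shared words with 24 glial peaks. Among the 280 glial peaks at least 480 bp wide, 25 matched themselves at 40% or more of their bases at a shift within 3 bp of 234 bp. Of these, 13 were on chromosome 9, and 19 overlapped a limb peak.

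On chromosome Y, 35 glial peaks fell in the 2.70 Mb that the build holds as sequence, which was 13.0 per Mb, and none of them was low in repeats. A run of 22 lay in chrY:2851121-2901228, with a median repeated share of 78.1%, and no protein-coding gene or lincRNA was annotated within it. The widest, chrY:2779996-2784050, was 4055 bp wide and 86.2% repeated. The limb list had 4 separate peaks under it, the highest at 49.3 against 310 in glial cells. The same was seen at chrY:2857396-2861378, with 310 in glial cells and at most 148 in limb, and at chrY:2875772-2877952, with 310 and at most 42.2. Strengths of the 2 lists depend on separate libraries and inputs, and the sex of the animals or of the line is not given in the sources used here, so these differences were not tested.

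A small group of strong peaks lay on simple tandem repeats inside genes. The peak in an intron of *Tcte2*, a gene of the t-complex region, was at chr17:13744571-13746228 and reached 310 in glial cells and 237 in limb. The unit CTGTG occurred 209 times in it. In *Smo*, which encodes the transducing receptor of hedgehog signalling, the peak at chr6:29697746-29699128 was intronic, held the same unit 191 times and reached 249, against 23.4 in limb. The peak in an intron of *Myo16*, which encodes an unconventional myosin, was at chr8:10599146-10599978 and held the 22-base unit printed above 7 times without a mismatch. Its strength was 242 in glial cells and 310 in limb. The *Tcte2* peak shared at least 10% of its 24-base words with 5 other glial peaks and the *Smo* peak with 6, while the *Myo16* peak shared them with none.

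The peak chr17:39979871-39983652 was the strongest that counted as low in repeats, with 7.77% repeated words, but it was not ordinary sequence. It was 3782 bp wide, had a GC content of 67.3% and lay 1.40 kb from the pseudogene *AY036118*. In the RefSeq gene table of the build GRCm38 the gene next to *AY036118* is *Rn18s-rs5*, a sequence related to 18S ribosomal RNA. Its strength was 310 in glial cells, and 2 limb peaks under it reached 205. Ribosomal RNA genes exist in many copies that the build mostly leaves out.

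Mitochondrial DNA carried 3 glial peaks, which together covered 66.5% of its 16299 bases. They were M positions 50 to 5400 with both ribosomal RNA genes and *mt-Nd1* and *mt-Nd2*, 5854 to 6452 in *mt-Co1*, and 10871 to 15752 from *mt-Nd4* to *mt-Cytb*. Their strengths were 310, 20 and 310. The limb peaks covered 55.7% of it, also in 3 pieces, and had no peak within *mt-Co1* alone. Outside the mitochondrial genome, 1 glial peak shared at least 10% of its words with it, chr1:24619396-24619624 in an exon of *Gm10222*, with 92.2% of its words in common and a strength of 9.34.

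Among peaks low in repeats, the strongest after the one beside *AY036118* were single-copy places of a different kind. The 10 strongest of this class ranked from 2 to 51, and 1 of the 10, that first one, overlapped a limb peak. Next came chr6:31921971-31922503 with 151, which was 49.7 kb from the processed transcript *Gm13849*. The peak chr3:109754846-109755528, with 147, was in an intron of *Ntng1*, which encodes the axon guidance protein netrin-G1. The peak chr14:62831996-62832678, with 144, was 62.4 kb from *Dleu7*. The peak chr1:61999471-62000203, with 135, was in an intron of *Pard3b*, which encodes a cell polarity protein. The others were chr9:75763921-75764702 in the lincRNA *Gm16662* with 141, chr12:15974896-15975553 near *Gm5432* with 139, chr4:69838821-69839478 downstream of *Cdk5rap2* with 137, chr1:73189196-73189876 upstream of *Tnp1* with 124, and chr10:6759521-6760003 downstream of *Iyd* with 124. They were 483 to 782 bp wide, and none lay in an annotated exon.

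Overlap with the limb list was rare, and more frequent among strong, wide and repeated peaks. By at least 1 bp, 104 glial peaks (3.56%, interval 2.95% to 4.30%) overlapped a limb peak, and 111 limb peaks (3.85%) overlapped a glial one. The limb list covered 0.0499% of the sequenced genome. The shared glial peaks had a median strength of 74.8 and a median repeated share of 44.2%, compared with 31.6 and 1.47% for the rest. Their median width was 545 bp, against 407 bp for the rest, and a wider peak meets another by 1 bp more easily. Of the 104, 48 lay in the densest 1 Mb windows of chromosomes 9, 11 and Y, which held 85 glial peaks. Among the 2033 glial peaks low in repeats, 25 were shared (1.23%, interval 0.83% to 1.81%), and among the 177 at least 50% repeated, 47 were (26.6%, interval 20.6% to 33.5%).

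Over the chromosomes the glial peaks were spread at 1.14 per sequenced Mb. On the autosomes other than chromosome 10 the density was between 0.93 per Mb on chromosome 2 and 1.503 per Mb on chromosome 15, with a median of 1.07. Chromosome 10 stood above all of these with 255 peaks, 2.01 per Mb, which was 8.74% of the peaks (interval 7.77% to 9.82%) on 4.96% of the sequenced bases. The limb list had 152 peaks there, 1.198 per Mb. Chromosome X stood below, with 52 peaks and 0.321 per Mb, and here the limb list was alike with 61 peaks and 0.376 per Mb. Only 20 of the X peaks were low in repeats.

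**Figure D2:**
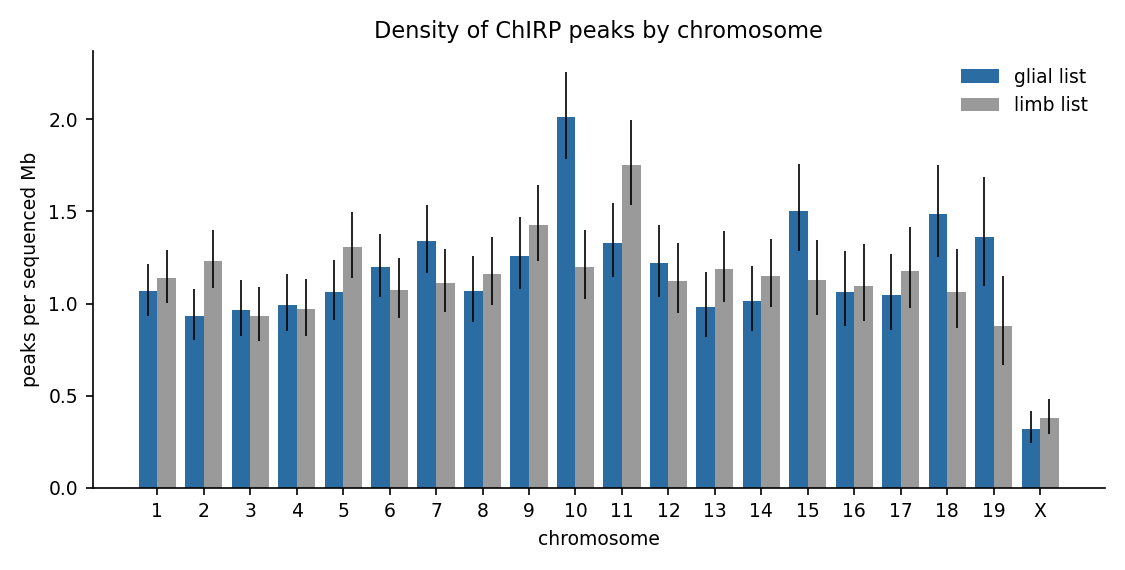
Bars give peaks per sequenced Mb for the glial list (blue) and the limb list (grey) on the autosomes and chromosome X, and lines are the 95% Wilson interval of the share of each list, scaled to density. Glial density is highest on chromosome 10, at 2.01 per Mb, and both lists are lowest on chromosome X.

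The high density on chromosome 10 ran along its length. Each of the 12 windows of 10 Mb with enough sequence held 13 to 33 peaks, and all 12 were above 1.10 per Mb, the median of 226 such windows on the other autosomes. The peaks there were weaker than elsewhere. Of the 255 peaks, 40 (15.7%) passed the threshold of 56.23, against 24.2% of the 2574 peaks on the other autosomes, and their median strength was 27.9 against 32.4. Among peaks at the threshold, the density on chromosome 10 was 1.09 times the median of the other autosomes, while over all peaks it was 1.89 times and among low-repeat peaks 1.82 times. By strength, chromosome 10 held 7.48% of the peaks below 10, 9.48% to 10.0% in the classes from 10 to 60, 5.70% of those of 60 to 100 and 6.67% of the 90 peaks of at least 100. The weakest class held 294 peaks and no interval was computed for these shares, so differences among the classes were not tested.

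**Figure D3:**
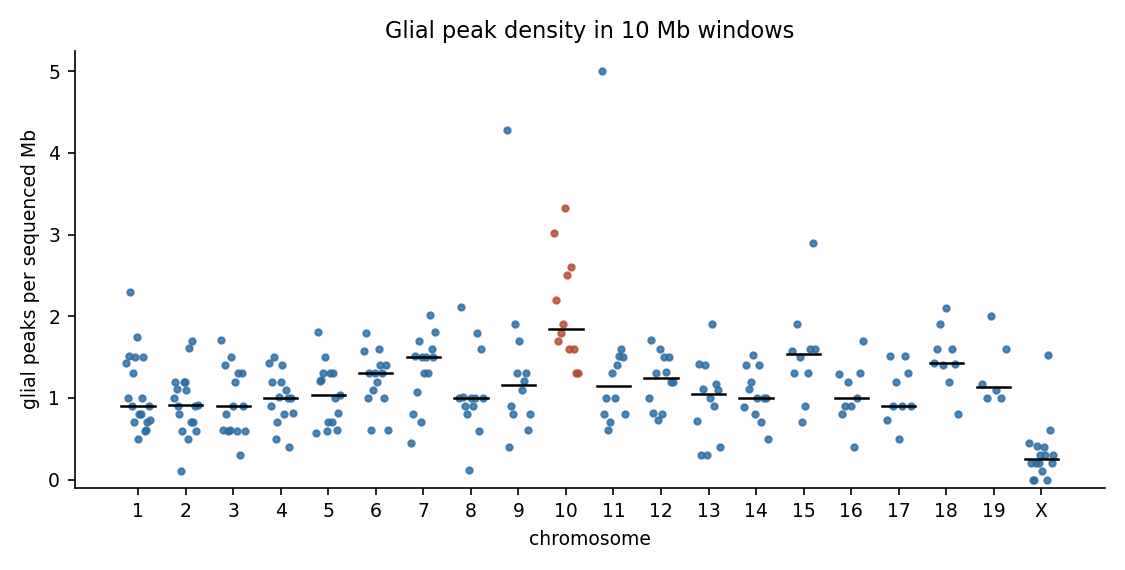
Each point is a 10 Mb window and gives glial peaks per sequenced Mb, by chromosome, with chromosome 10 in red and the median of each chromosome as a black line. The 12 windows of chromosome 10 lie between 1.30 and 3.33 per Mb, and the single high windows of chromosomes 9 and 11, at 4.29 and 5.00, hold the arrays near their starts.

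Peaks also lay close to each other. Another glial peak was within 25 kb of 814 peaks (27.9%, interval 26.3% to 29.5%), compared with 22.3% in the limb list. Joined at this distance, the 2919 peaks made 2416 groups, of which 228 held 2 peaks, 54 held 3, 16 held 4, 5 held 5 and 8 held 6 or more. The 8 largest groups together held 107 peaks. Besides the arrays on chromosomes 9, 11 and Y, they were 5 groups of 6 to 8 peaks without any limb peak in them. One, chr11:92476748-92487900, had 8 peaks in 11.2 kb with a median strength of 38.6 and no gene. The others had 6 peaks each. They were chr10:85080522-85108678 in *Btbd11*, chr8:16210347-16223653 in *Csmd1*, chr4:69838821-69859476, which starts with the strong peak downstream of *Cdk5rap2*, and chr15:82509371-82545178 at the pseudogene *Cyp2d37-ps*. All of these except the one on chromosome 15 had a median repeated share below 5%, whereas that one had 19.4%.

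Relative to genes of the GENCODE annotation of mm9, the glial peaks lay somewhat more often in genes than sequenced bases do. A midpoint inside a gene was found for 1298 peaks, 44.5% (interval 42.7% to 46.3%), where 41.2% of sequenced bases are in genes and the limb list had 48.0%. Exons held 129 peaks, 4.42% (interval 3.73% to 5.23%), against 3.402% of bases. Introns held 1169 peaks, 40.05% (interval 38.3% to 41.8%) against 37.7%. Within 1 kb of a transcript start lay 144 peaks, 4.93% (interval 4.21% to 5.78%), against 4.15% of bases and 5.76% of limb peaks. The lower bounds of these 4 intervals were above the share of bases, by less than 2 percentage points in each case. These intervals take the peaks as independent, although 27.9% of them had another within 25 kb. *Sfi1* alone held 26 of the midpoints, 5 of them in exons. How far such groups carry the small excess was not tested. Of all peaks, 1919 (65.7%) were in a gene or within 25 kb of one, and 65.2% of sequenced bases were. For the 1601 peaks that touched no gene the median distance to one was 45.3 kb, and 47 of them were over 500 kb away.

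**Figure D4:**
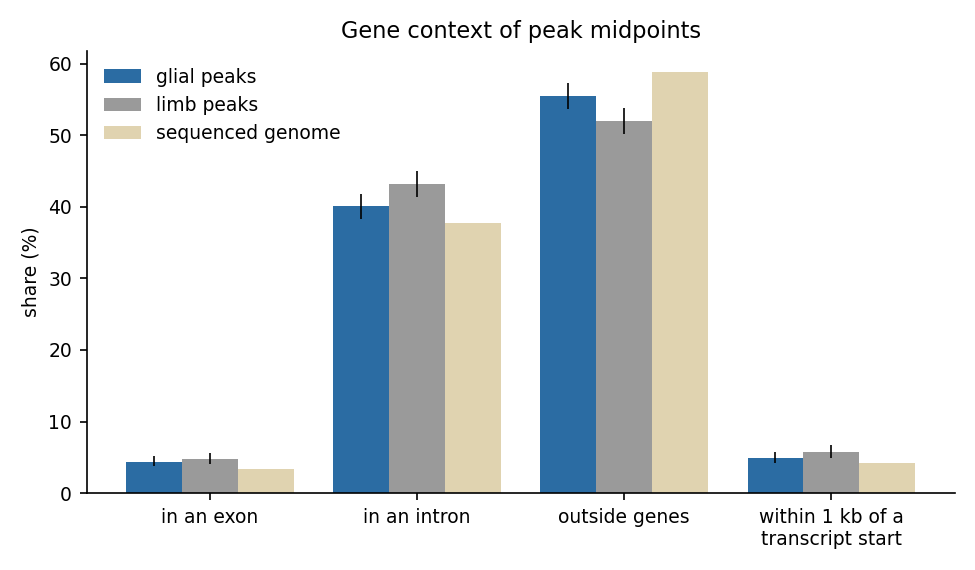
Bars give the percentage of glial peak midpoints (blue), limb peak midpoints (grey) and sequenced mm9 bases (tan) in exons, in introns, outside genes and within 1 kb of a transcript start, with 95% Wilson intervals for the peaks. The glial shares differ from those of the genome by at most 3.32 percentage points.

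Protein-coding genes with a glial peak in their body numbered 932 of 22380 (4.16%), and 177 had more than 1. They were long, with a median of 110 kb against 14.4 kb for genes without. Per Mb of gene the number was nearly level, at 1.43 for genes under 10 kb, 1.16 for genes of 100 to 250 kb and 1.10 for genes of 500 kb and more, so that 48.0% of this last class and 0.53% of the first held a peak. After *Sfi1*, the genes with the most peaks were *Btbd11*, *Nlgn1* and *Csmd1* with 8 each. *Btbd11* lay on chromosome 10, and 2 of its peaks passed the threshold. *Nlgn1*, which encodes the postsynaptic adhesion protein neuroligin 1, had 4 at the threshold and the strongest at 104. *Csmd1* encodes a membrane protein with complement-regulating domains, and its strongest peak had 83.7. *Nrg3*, which encodes the ErbB4 ligand neuregulin 3, and *Ctnna3*, which encodes alpha-T-catenin, held 7 each, with highest strengths of 87.3 and 38.1. *Opcml*, an adhesion gene of the immunoglobulin class, and *Fgfr2*, which this annotation extends over 3009 kb, held 5 each. A further 16 genes held 4. *Btbd11*, *Nlgn1*, *Csmd1* and *Opcml* had no limb peak, *Nrg3* had 1, *Ctnna3* 4 and *Fgfr2* 8.

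The share of glial genes with a peak was near that of all coding genes. Among 26 glial and neural progenitor genes 1 (3.85%, against 4.16% of all coding genes) held a peak, *Nfib*, which encodes a transcription factor of gliogenesis, with a strength of 37.9 at chr4:81994646-81995053 in an intron. Those 26 genes had a median length of 13.9 kb and held 0.64 peaks per Mb. Among 26 long genes 17 (65.4%) held 51 peaks, against 48.0% of all coding genes of 500 kb and more. Many of the 26 act at synapses or in cell adhesion, but *Park2*, *Fhit*, *Wwox*, *Immp2l* and *Macrod2* do not, and the list was chosen with earlier results of these data known. The density was 1.36 per Mb, where the coding genes as a whole had 1.24 per Mb and those of 500 kb and more 1.10. The limb list had 0.96 per Mb in the 26 genes. The strongest of the 51 glial peaks were in *Nrxn3*, a presynaptic neurexin, with 112 at chr12:91410724-91411428, and in *Park2*, which encodes the ubiquitin ligase parkin, with 100.4 at chr17:11606321-11607078. Below them came *Nrg3* with 87.3 and *Csmd1* with 83.7, both named above. *Ptprd*, a receptor phosphatase, had 82.6, *Dlg2*, a synaptic scaffold, 66.5, *Opcml* 64.5 and *Magi2*, another scaffold, 61.9. Of the 51 peaks 1, in *Ctnna3*, had its midpoint in an exon. Among 42 genes with expression primers for the siRNA experiments, 6 (14.3%) held 8 glial peaks, where 4.16% of all coding genes held one. The median length of the list was 74.2 kb, and 6.84% of coding genes of 50 to 100 kb held a peak. However, the 6 included *Col14a1*, *Gli2*, *Ncam1*, *Akap6* and *Rbms3*, which were 213 to 1057 kb long. Of coding genes of 100 to 250 kb 14.4% held a peak, of those of 250 to 500 kb 31.5%, and of longer ones 48.0%. The density over the 42 genes was 1.01 per Mb, against 1.24 in coding genes as a whole, and the list held 53 limb peaks, 6.67 per Mb. The paper describes the 42 genes it tested as lying within 25 kb of a limb peak, so the limb value follows from that choice and is not an independent measure.

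None of the 20 genes of the HoxA and HoxD clusters had a glial peak in its body, and 18 of them were under 10 kb, a class of which 0.53% of coding genes held one. Within 25 kb of a peak lay 8 of the 20, against 5.13% of coding genes under 10 kb, but these neighbouring genes shared 2 peaks. One, chr2:74516672-74517053, was between *Hoxd12* and *Hoxd11*, 0.396 kb from the latter, with a strength of 26.5, a rank of 1689 and no repeated word. The other was the peak over the probe sites of *LncRNA-HIT*. It was 490 bp from *Hoxa13* and 9983 bp from *Hoxa11*, which encode homeodomain transcription factors of limb patterning. The nearest other glial peak was 510 kb away. It covered 18 of the 25 probe sites, the 7 not covered being probes 1 to 7, those nearest to *Hoxa13*. The limb peak, chr6:52206123-52207602, covered all 25, extending 73 bp and 399 bp further at its ends. Its strength was 310, against 59.6 for the glial peak, and 584 glial peaks were stronger than that.

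Elsewhere in the list short runs of probe sequence were in a small share of peaks, about 2 times that of the genome windows and below that of the limb list. Outside the *LncRNA-HIT* peak, 81 of 2918 glial peaks (2.78%) held a run of at least 12 bases identical to a probe on either strand. Over the central 400 bases, the size of the windows, the share was 2.54% of glial peaks (interval 2.02% to 3.17%), 7.33% of the 2879 limb peaks outside the locus and 1.27% of the 25577 windows. The longest run was 14 bases, found at 6 places, and no peak held runs from both the odd and the even set. Of the 81 peaks, 6 (7.41%) overlapped a limb peak, against 3.56% of the whole list, and 26 (32.1%) passed the threshold of 56.23, against 24%. Probe 16, of the even set, gave 14 of the 82 runs, probe 9 gave 11 and probe 25 gave 9. The strongest peaks with 14 identical bases are printed with the probes they matched, with these bases in capitals and each site read in the direction of its probe. The first was at chr9:22777737-22777750 downstream of *Bbs9*, in a peak with a strength of 83.4, and the second at chr6:113681343-113681356 in an intron of *Sec13*, in a peak with 81.4.
probe 25: acacaatatctcctgtgctg
chromosome 9 site: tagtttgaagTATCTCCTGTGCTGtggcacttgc
probe 6: ctagtcctgtcatttcaaca
chromosome 6 site: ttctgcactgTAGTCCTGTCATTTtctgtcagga

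A short word unrelated to the probes and to satellite DNA recurred in weak glial peaks. Of the 8-base words most over-represented against the windows, TGGGCTCG, or CGAGCCCA on the other strand, was the first that did not lie mainly in the dense arrays. Both strands were searched, over the whole width of each peak. It was present in 75 glial peaks (2.57%), 65 limb peaks (2.26%) and 61 of the 25577 windows (0.238%), a ratio of 10.8 between glial peaks and windows. Over the central 400 bp of the peaks, the size of the windows, it was in 73 glial and 63 limb peaks, a ratio of 10.5. Extended to GTGGGCTCGG, it was in 32 glial peaks (1.10%), 25 limb peaks (0.868%) and 3 windows (0.0117%). The 75 peaks lay on 20 chromosomes, 4 of them (5.33%) overlapped a limb peak, against 3.56% of the whole list, and their median repeated share was 0.52%. Their median strength was 16.4, compared with 33.1 for the peaks without the word, and 6 of them (8.0%) passed the threshold of 56.23, against 24% of the list. The sites of the 10-base form in the 3 strongest peaks that hold it are printed, with the word in capitals and each site read in the direction of the word.
chr17:9158322-9158351, intron of Pde10a, peak strength 76.2: ctggttcctaGTGGGCTCGGcatcactgat
chr16:42799966-42799995, intron of 4932412D23Rik, peak strength 61.5: cctccgtcacGTGGGCTCGGtggctttata
chr10:32266181-32266210, upstream of Nkain2, peak strength 54.0: tgggagccttGTGGGCTCGGgacacatcac

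The sites of the word lay mostly on one side of the peak centre. In peaks up to 600 bp wide, 65 of 73 sites (89.0%, interval 79.8% to 94.3%) lay before the peak centre when read as TGGGCTCG, and the median offset of all 73 was 70 bp before it, with quartiles of 33 and 103.5 bp. In the limb list 55 of 63 sites did so, and in the windows, which have no signal to centre on, 35 of 61. As background, the letters GTGGGCTCGG also end the index primer of a common transposase-based library kit. The kit used for these libraries is not given in the sources used here, and a part of it in these peaks was not tested.

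**Figure D5:**
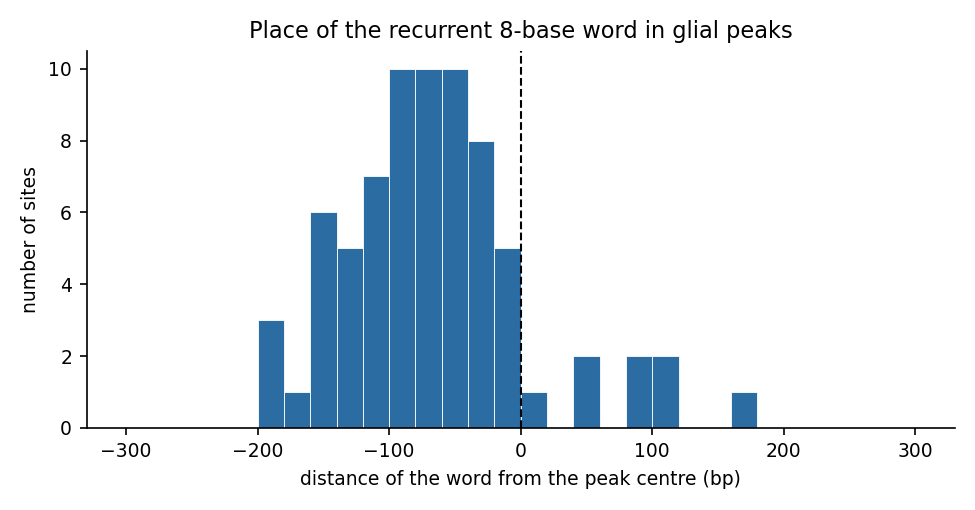
The histogram gives the distance in bp from the peak centre of 73 sites of the 8-base word in glial peaks up to 600 bp wide, read in the direction of the word, with the dashed line at the centre. Of these sites 65 lie to its left, and the median of all 73 is 70 bp to the left.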

How the data were processed

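Limb and glial chromatin were each hybridized with 2 probe pools, odd and even, and 1 input library was made per tissue. According to the labels and the paper's methods, reads were aligned uniquely to mm9 with Bowtie 0.12.9, normalized to the total read count, and the probe pools were merged position by position at the lower value, after which peaks were called with MACS (version not given in the sources used here). The score deposited by the authors for each peak, 10 times −log10 of the caller's p, was divided by 10 and called strength. Sequencing depth is unknown.

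Members, gene lists and thresholds were chosen with earlier results of these data known. Peaks were placed on the mm9 sequence and GENCODE M1 by their midpoints. Repeated sequence was the share of 24-base words found more than once in the genome. Windows of 400 bp every 100 kb were the background. Peaks named in the text were mainly drawn from the 20 strongest, the 10 strongest low in repeats (under 10% repeated words) and the 5 widest (all among the 20). Others came from the genes with most peaks, the densest windows, list members with a peak, and the *LncRNA-HIT* locus. Not every member of these groups was named. The word TGGGCTCG and the sequences printed were chosen after their values were seen. All 42 siRNA genes and the other list members were found in the annotation, some through RefSeq synonyms. The procedures were tested on simulated data. No test was possible with 1 list per tissue. The scripts ran on matplotlib 3.10.9, pandas 2.3.3, samtools 1.23.1, numpy 2.4.6, pysam 0.24.0, scipy 1.17.1, Python 3.11.15 and numba 0.67.0.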

Additional observations from a re-analysis of the deposited data

How the results depend on the processing

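For 9 summary values 24 alternatives were computed in all, 1 to 4 for each, and 7 of the 24 stayed within the interval or quartiles of the main value. No paired analysis was possible because each group had 1 library and the deposited lists merge the probe sets. With only peaks of a strength of at least 56.23, the median width was 433 bp, the share on chromosome 10 fell from 8.74% to 5.71%, the share with a neighbour within 25 kb was 18.4% and the share low in repeats 63.6%. At a strength of at least 100 the median width was 880.5 bp. With protein-coding genes only, 42.0% of midpoints were in genes, against 38.8% of sequenced bases. Within 25 kb of such a gene lay 59.4% of peaks (interval 57.6% to 61.2%), against 56.9% of bases. The promoter share was 9.97% with windows of 2.5 kb (interval 8.93% to 11.1%). At that distance the interval included the share of bases, 9.29%. The share near genes was 56.4% at 10 kb and 73.7% at 50 kb, and the share with a neighbour 22.99% at 10 kb and 39.4% at 100 kb. Low-repeat peaks were 54.1% with 20-base words and 79.7% with 30-base words. The shared part was 2.77% when 50% of the glial peak had to be covered, 4.56% within 1 kb, and 6.71% with both lists at the threshold. The share on chromosome 10 was 8.88% without shared peaks, 8.95% among low-repeat peaks and 9.15% over groups. The sequenced share of that chromosome is 4.96%. What depth limits could not be examined, since the lists hold no read counts.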

Other observations

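The edges of the peaks fell on a ladder of 25 bp. In the glial list 55.1% of starts and 53.7% of ends had the same remainder when divided by 25, and the limb list had 55.7% and 54.4% at the same remainders. A width or an overlap is therefore coarser than its single bases imply.

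Some simple repeats were more frequent in glial peaks than in the evenly spaced windows and others less. Runs of 10 CA units were in 6.10% of glial peaks, 5.52% of limb peaks and 3.72% of windows. Runs of 20 A were in 0.685% of glial peaks and 1.04% of windows, and runs of 5 GGAA units in 0.0685% and 0.395%. Runs of 4 TTAGGG units, the letters of telomeres, were in 4 glial peaks, 5 limb peaks and 1 window.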
